A study of Saccharomyces cerevisiae with 4 samples.

Results

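The 41 genes described here encode nuclear-encoded parts of the mitochondrial respiratory chain and ATP synthase of budding yeast (Saccharomyces cerevisiae), together with the HAP activator of many respiratory genes. They were picked by gene name and complex with a rule that uses no measured value, but with earlier results of these data known. All 41 were found among the 6697 genes of the deposited table. They comprise 3 NADH dehydrogenases, 10 genes of complex III and cytochrome c, 9 of complex IV, 5 of the F1 part and 8 of the Fo part and stalk of ATP synthase, 2 ATP synthase inhibitors and 4 HAP genes. Total RNA of wild type (WT) and of a strain with 9 Myc epitopes on the N terminus of Swd2 (9Myc-Swd2) was sequenced, with 2 libraries in each group. Swd2 is a subunit both of the COMPASS histone H3 lysine methyltransferase and of the cleavage and polyadenylation factor. All cultures were grown in YPD, a rich medium with 2% glucose, at 30 °C and were harvested at an OD600 of 1.0. The labels give no other allele, and the design text calls the strains isogenic. Separate cultures are not stated for the 2 libraries of a group. A p-value here therefore reflects only the spread between these libraries, pooled in part over all genes, and this spread may be technical.

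Yeast lacks the multisubunit complex I of other eukaryotes. Its single-polypeptide NADH dehydrogenases pass electrons to coenzyme Q, complex III passes them on to cytochrome c, and complex IV reduces oxygen. The proton gradient built by complexes III and IV drives ATP synthase, whose membrane part Fo turns the central stalk within the catalytic F1 head. In glucose medium yeast mainly ferments and holds many of these genes down. The heteromer of Hap2, Hap3 and Hap5 binds promoters that hold the sequence CCAAT, and Hap4 supplies its activation domain. HAP4 itself is one of the genes that glucose represses.

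The binding sequence is shown here because it lies in front of genes that rose, fell and did not pass the test. In the 400 bases before the start codon, searched on both strands of the RefSeq R64 genome, CCAAT was present for 34 of the 41 genes (82.9%) and for 52.8% of all 6001 nuclear protein-coding genes. The longer form ACCAATNA, which contains CCAAT, was present for 18 of the 41 (43.9%) and for 7% of all. It stood before 6 of the 12 genes that rose, 3 of the 4 that fell and 9 of the 25 that did not pass. A match is a string of letters, not a measured binding site. Each line gives 30 bases 5′ to 3′ with the 8 bases of the match in capitals. NDI1, ATP15, ATP14 and ATP7 rose, COX5B, COX12 and ATP4 fell, QCR7 and RIP1 did not pass, and HAP4, which rose, has the match on the strand opposite to the gene.
NDI1: tattcattcggACCAATCAtatgaaggcat
ATP15: cttttatacgaACCAATGAaatttgatcct
ATP14: gccatacacgaACCAATTAtgcatcataaa
ATP7: gtaaaagatacACCAATTAccacttgctgc
COX5B: ttaaacaatagACCAATTAtttcaatttaa
COX12: tcataacattgACCAATCAattttcagaaa
ATP4: atcaatattgaACCAATCAcgacgcttttt
QCR7: atcttgttttgACCAATCAggagcgacgcg
RIP1: ctccataacggACCAATCAgcgttttgcgc
HAP4: tgtactaggagACCAATAAatatgtgtgga

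These stretches are, in the same order, chrXIII:30017-30046 (minus strand), chrXVI:29934-29963 (plus), chrXII:722553-722582 (minus), chrXI:408149-408178 (minus), chrIX:155138-155167 (plus), chrXII:225360-225389 (minus), chrXVI:408916-408945 (minus), chrIV:1496712-1496741 (minus), chrV:107001-107030 (plus) and chrXI:232121-232150 (minus). The far end of the match lies between 73 bases (COX5B) and 248 bases (RIP1) before the start codon in these 10 genes. QCR2 and ATP2, which rose, hold no ACCAATNA in this window, which says only that these letters are absent there.

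The libraries held 8388090 and 8327878 reads in WT and 7849193 and 8316221 in 9Myc-Swd2. The 41 genes took 0.782% and 0.800% of the WT reads and 0.873% and 0.875% of the 9Myc-Swd2 reads, and the least read of them had 164 reads in a library. SWD2, the tagged gene, was at 335 and 351 normalized counts in WT and at 1080 and 969 in 9Myc-Swd2, with a limma-trend log2 fold change of 1.58 ± 0.08 (SE, adjusted p = 2.4e-10). SWD2 lies on chromosome XI, where 90.6% of the 342 genes tested were higher in 9Myc-Swd2, with a median log2 fold change of 0.90. ATP7 and HAP4 lie on the same chromosome, and values for the 41 genes are therefore given with and without it. LEU2, a common selection marker on chromosome III that was chosen after its values were seen, was at 31.4 and 22.4 normalized counts in WT and at 2276 and 2163 in 9Myc-Swd2, so the groups differed by more than the tag. The part of these differences in the results below was not tested. In RNA from whole cultures, a change in the number of expressing cells and a change in RNA per cell cannot be told apart.

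Of the 41 genes, 12 were higher in 9Myc-Swd2 (29.3%), 4 were lower (9.76%) and 25 did not pass. The test was limma-trend on log2(normalized count + 1) over 6503 genes, with Benjamini-Hochberg adjusted p under 0.05. Among all genes tested, 22.3% were higher and 21.4% lower by the same test. The share that rose was thus above the background and the share that fell below it, and neither difference was tested. The 41 genes had a median log2 fold change of 0.12, where all genes had 0.00, and 31 of the 41 values were above 0. Off chromosome XI, 10 of 39 were higher (25.6%) and 4 were lower (10.3%), with a median of 0.11. The background there was 18.5% higher and 22.6% lower, with a median of -0.02. Both 9Myc-Swd2 libraries lay above both WT libraries for 22 of the 41 genes and below both for 7, where the same held for 36% and 35.6% of all genes tested. The number that fell was 2 without WT 1 and 1 without WT 2, and the number that rose was between 10 and 14 with any library left out. The authors' deposited table calls 10 of the 41 genes higher and 3 lower at 0.05, with the same call as here for 38.

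**Figure D1:**
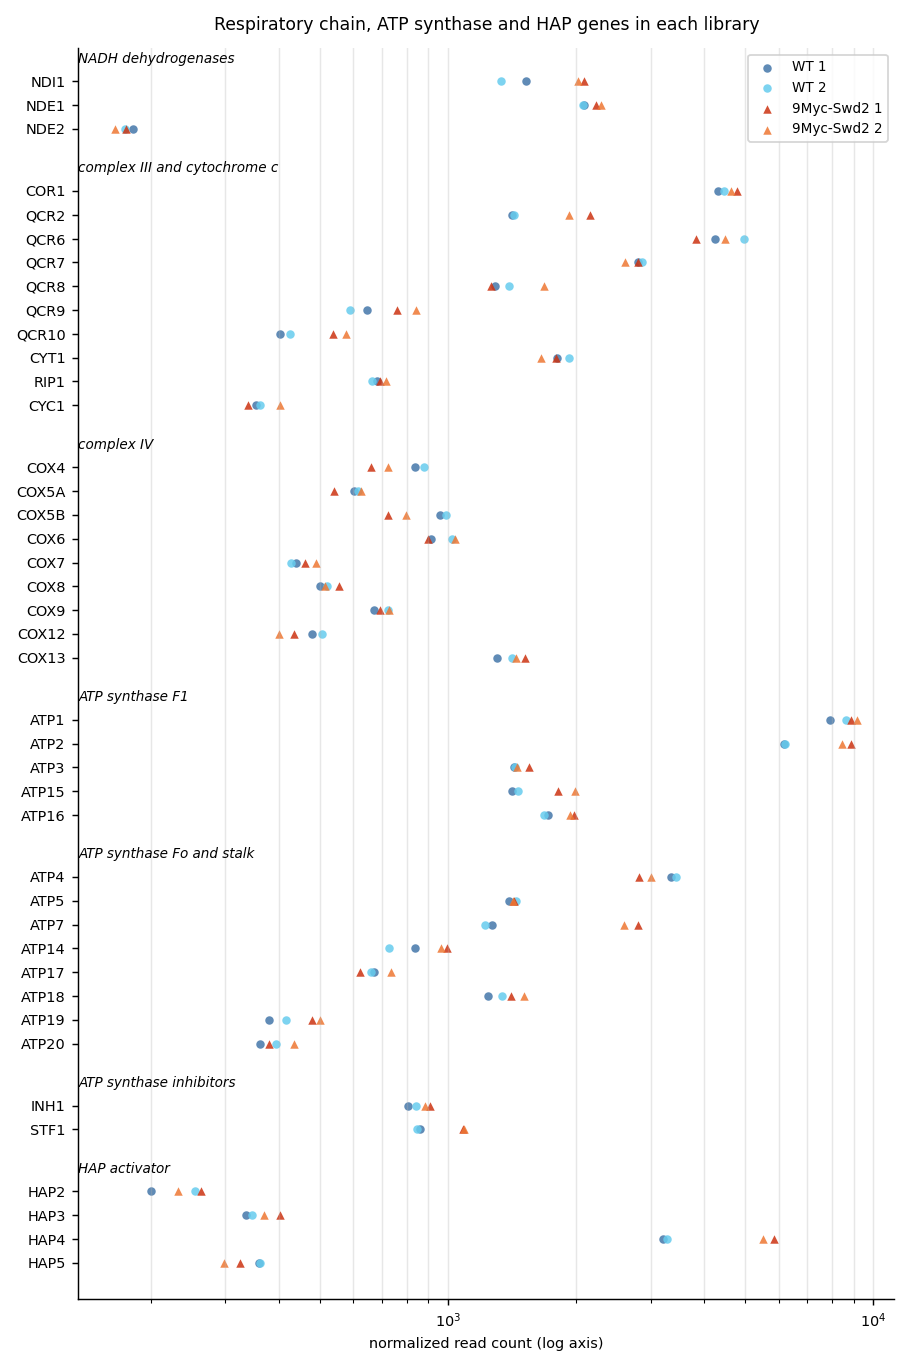
Normalized read count (x axis, log scale) of each of the 41 genes in the 2 WT libraries (circles) and the 2 9Myc-Swd2 libraries (triangles), grouped by complex. For ATP7, HAP4, QCR2, NDI1 and ATP2 both triangles lie well to the right of both circles, and for COX4, COX5B and ATP4 both lie to the left.

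**Figure D2:**
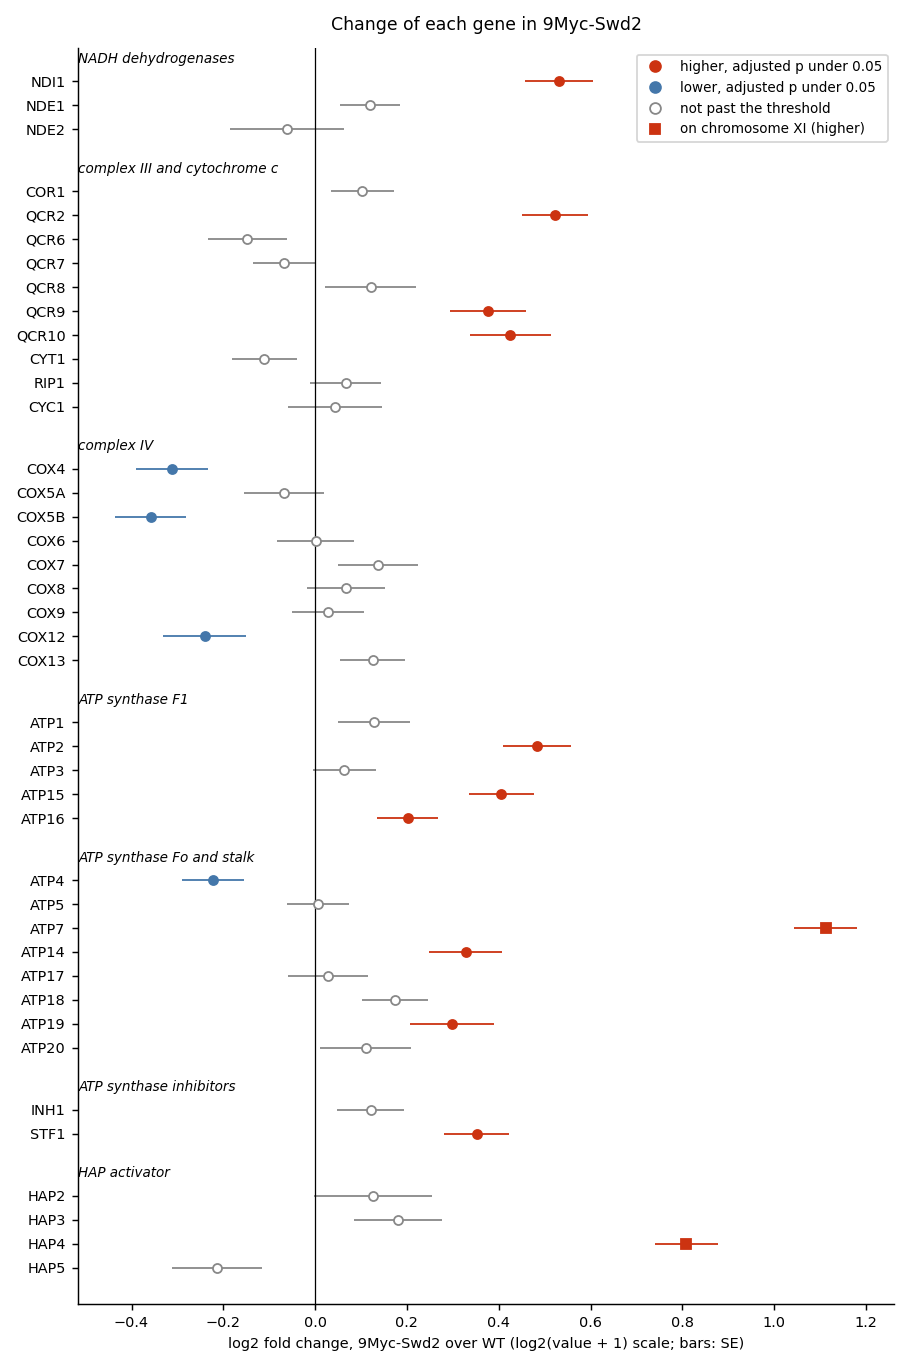
Log2 fold change of 9Myc-Swd2 over WT for each gene, on the log2(value + 1) scale, with bars for the standard error. Filled red symbols mark the 12 genes that rose, filled blue symbols the 4 that fell and open symbols the 25 that did not pass; squares mark ATP7 and HAP4 on chromosome XI.

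The NADH dehydrogenases did not move together. NDI1 (YML120C, chromosome XIII, 28266 to 29807, minus strand), the enzyme on the matrix side of the inner membrane, rose. It was at 1524 and 1334 normalized counts in WT and at 2094 and 2028 in 9Myc-Swd2. Both tagged libraries lay above both WT libraries, and its log2 fold change was 0.53 ± 0.07 (SE, limma-trend adjusted p = 1.64e-05). NDE1 and NDE2 encode the enzymes on the outer side, which take NADH from the cytosol. NDE1 was at 2088 and 2074 in WT and at 2236 and 2286 in 9Myc-Swd2, a log2 fold change of 0.12 ± 0.07 (not past the threshold, adjusted p = 0.15). NDE2 was at 182 and 174 in WT and at 175 and 165 in 9Myc-Swd2, and its libraries overlapped. Per kb of coding length, NDI1 was at 0.797 and 0.702 of the NDE1 level in WT and at 1.02 and 0.968 in 9Myc-Swd2, so the levels of these genes per length were nearer to each other in the tagged strain. NDE1 stood at 11.2 and 11.6 of the NDE2 level per kb in WT and at 12.4 and 13.5 in 9Myc-Swd2. NDE1 and NDE2 share 64% of their aligned coding bases, with no identical run over 11 bases.

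In complex III, 3 of 9 subunit genes rose (33.3%) and the others did not pass, where 18.5% of all genes tested off chromosome XI rose. QCR2 (YPR191W, chromosome XVI, 919381 to 920487, plus strand) encodes a core subunit. It was at 1413 and 1429 normalized counts in WT and at 2163 and 1925 in 9Myc-Swd2, and it rose with a limma-trend log2 fold change of 0.52 ± 0.07 (SE, adjusted p = 1.43e-05). Its partner core subunit gene COR1 was at 4327 and 4453 in WT and at 4787 and 4643 in 9Myc-Swd2. The COR1 groups did not overlap either, but its log2 fold change was 0.10 with an adjusted p of 0.24. The small subunit genes QCR9 and QCR10, both of which have an intron, also rose. QCR9 was at 644 and 588 in WT and at 761 and 840 in 9Myc-Swd2, a log2 fold change of 0.38 ± 0.08 (adjusted p = 0.00129). QCR10 was at 403 and 426 in WT and at 538 and 576 in 9Myc-Swd2, a log2 fold change of 0.43 ± 0.09 (adjusted p = 0.000764). For each of these 3 genes every tagged library was above every WT library.

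The nuclear genes whose products carry haem or the iron-sulfur cluster in complex III, and CYC1, did not pass the test. CYT1, the gene of cytochrome c1, was at 1803 and 1932 normalized counts in WT and at 1800 and 1660 in 9Myc-Swd2 (log2 fold change -0.11). RIP1, the Rieske protein gene, was at 681 and 664 in WT and at 692 and 717 in 9Myc-Swd2 (log2 fold change 0.07). CYC1, the gene of the main isoform of cytochrome c, was at 354 and 362 in WT and at 338 and 402 in 9Myc-Swd2 (log2 fold change 0.04 ± 0.10), with the WT libraries between the tagged ones. The small subunit genes QCR6, QCR7 and QCR8 had log2 fold changes of -0.15, -0.07 and 0.12. QCR8 had the widest spread of the 41 genes, with 1263 and 1687 in the tagged libraries, an SD of 20.3% of their mean. QCR8 passed with a rise when 9Myc-Swd2 1 was left out (adjusted p = 0.000178), and QCR6 with a fall when 9Myc-Swd2 2 was left out (0.0031). CYT1 passed with a fall after quantile normalization (0.0215). By limma-trend 0 of the 10 genes of complex III and cytochrome c fell, as also by edgeR and by DESeq2 (0 each). A fall with an unadjusted p under 0.05 was seen for 0 of them. Of all genes tested off chromosome XI, where these 10 lie, 22.6% fell by limma-trend.

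CYC7, which is not among the 41 genes, encodes the minor isoform of cytochrome c and rose. It was at 165 and 190 normalized counts in WT and at 285 and 304 in 9Myc-Swd2, with a limma-trend log2 fold change of 0.73 ± 0.12 (SE, adjusted p = 7.19e-05). Per kb of coding length CYC1 was at 2.22 and 1.98 of the CYC7 level in WT and at 1.23 and 1.37 in 9Myc-Swd2. The tagged libraries thus held more CYC7 relative to CYC1 than either WT library, and CYC1 stayed the higher of the pair in all 4 libraries. Their coding sequences are identical at 77% of aligned bases, with a longest identical run of 35 bases, and how reads of both genes were assigned is not known.

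Of the 4 genes that fell, 3 belong to complex IV. COX4, COX5B and COX12 fell, and the other 6 of its 9 genes did not pass. The share that fell was 33.3%, beside 22.6% of all genes tested off chromosome XI, where these 9 lie. By limma-trend 0 of the 9 rose, as also by edgeR and by DESeq2 (0 each). A rise with an unadjusted p under 0.05 was seen for 0 of them. Of all genes tested off chromosome XI, 18.5% rose by limma-trend. The median log2 fold change of the 9 was 0.00. COX5B (YIL111W, chromosome IX, 155222 to 155765, plus strand, 2 coding exons) encodes the isoform of subunit V made when oxygen is low. It was at 956 and 990 normalized counts in WT and at 722 and 797 in 9Myc-Swd2, a log2 fold change of -0.36 ± 0.08 (SE, adjusted p = 0.00106). COX4 (YGL187C, chromosome VII, 149704 to 150171, minus strand), the gene of a zinc-binding subunit, was at 835 and 880 in WT and at 659 and 724 in 9Myc-Swd2, a log2 fold change of -0.31 ± 0.08 (adjusted p = 0.00382). COX12 was at 478 and 507 in WT and at 434 and 400 in 9Myc-Swd2, a log2 fold change of -0.24 ± 0.09 (adjusted p = 0.038). In all 3 genes both tagged libraries lay below both WT libraries. COX4 did not pass without WT 2 (adjusted p = 0.0748). COX12 did not pass without WT 1 (0.0981), without WT 2 (0.276) or without 9Myc-Swd2 2 (0.141), and not in the authors' deposited table (0.172).

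The other 6 complex IV genes had log2 fold changes between -0.07 and 0.14. COX6 was at 913 and 1023 normalized counts in WT and at 900 and 1040 in 9Myc-Swd2, a log2 fold change of 0.00. COX9 and COX8 had log2 fold changes of 0.03 and 0.07. COX7 and COX13 were higher in both tagged libraries than in both WT libraries, with log2 fold changes of 0.14 and 0.13, and did not pass (adjusted p = 0.22 and 0.16). COX5A, the isoform of subunit V used with oxygen present, was at 601 and 615 in WT and at 539 and 624 in 9Myc-Swd2 (log2 fold change -0.07 ± 0.09). Per kb of coding length, COX5A was at 0.620 and 0.613 of the COX5B level in WT and at 0.737 and 0.772 in 9Myc-Swd2. COX5B was thus the higher isoform per length in all 4 libraries, and the ratio was nearer to equality in the tagged ones. The isoforms are identical at 67.5% of aligned coding bases, with no identical run over 12 bases.

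In the F1 head of ATP synthase all 5 genes were higher in both tagged libraries than in both WT libraries, and 3 of them rose. Of all genes tested, 36% were higher in both tagged libraries, and 18.5% of those off chromosome XI rose. ATP2 (YJR121W, chromosome X, 647607 to 649142, plus strand), which encodes the catalytic β subunit, was at 6167 and 6199 normalized counts in WT and at 8851 and 8448 in 9Myc-Swd2. Its log2 fold change was 0.48 ± 0.07 (SE, limma-trend adjusted p = 4.47e-05). ATP1, the gene of the α subunit that alternates with β in the head, was at 7904 and 8647 in WT and at 8895 and 9180 in 9Myc-Swd2. The ATP1 libraries did not overlap between groups, but the log2 fold change of 0.13 ± 0.08 did not pass (adjusted p = 0.21; 0.0135 after quantile normalization). Of the central stalk genes, ATP15 (ε) was at 1413 and 1463 in WT and at 1817 and 1996 in 9Myc-Swd2, and rose by 0.41 ± 0.07 on the log2 scale (adjusted p = 0.000161). ATP16 (δ) was at 1722 and 1680 in WT and at 1980 and 1934 in 9Myc-Swd2, a log2 fold change of 0.20 ± 0.07 (adjusted p = 0.0195). ATP3 (γ) was at 1428 and 1441 in WT and at 1549 and 1452 in 9Myc-Swd2, a log2 fold change of 0.06 (not past the threshold). ATP16 did not pass without WT 1 (0.0875) or WT 2 (0.166), in the authors' deposited table (0.0677), or after quantile normalization, where its log2 fold change was 0.09.

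The Fo part and the peripheral stalk held genes that rose and a gene that fell. ATP7 (YKL016C, chromosome XI, 407465 to 407989, minus strand), the gene of stalk subunit d, was at 1273 and 1220 normalized counts in WT and at 2798 and 2595 in 9Myc-Swd2. Its limma-trend log2 fold change of 1.11 ± 0.07 (SE, adjusted p = 9.24e-10) was the largest of the 41 genes. ATP4, the gene of stalk subunit b, was at 3342 and 3437 in WT and at 2808 and 3005 in 9Myc-Swd2, a log2 fold change of -0.22 ± 0.07 (adjusted p = 0.0135). These genes encode subunits of the same stalk, and their groups separated in opposite directions. ATP14 (subunit h) was at 839 and 727 in WT and at 995 and 966 in 9Myc-Swd2, a log2 fold change of 0.33 ± 0.08 (adjusted p = 0.00312). ATP5, whose product joins the stalk to the F1 head, was at 1391 and 1447 in WT and at 1428 and 1421 in 9Myc-Swd2, with both tagged values between the WT ones.

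Among the genes of small membrane subunits, ATP19 (subunit k) rose. It was at 380 and 417 normalized counts in WT and at 479 and 501 in 9Myc-Swd2, with a limma-trend log2 fold change of 0.30 ± 0.09 (SE, adjusted p = 0.0131). ATP18 was at 1241 and 1341 in WT and at 1406 and 1508 in 9Myc-Swd2, without overlap, and its log2 fold change of 0.17 ± 0.07 did not pass (adjusted p = 0.058). ATP18 passed without 9Myc-Swd2 1 (0.0144) and with size factors from genes off chromosome XI (0.0333). ATP17 and ATP20 had log2 fold changes of 0.03 and 0.11 with overlapping libraries, as had TIM11, the subunit e gene outside the 41, with -0.05. Some calls in this complex were lost when a library was left out. ATP4 did not pass without WT 1 (0.0657), WT 2 (0.137) or 9Myc-Swd2 1 (0.0564), ATP14 not without WT 2 (0.116), and ATP19 not without WT 1 (0.169) or in the authors' deposited table (0.0823).

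Of the ATP synthase inhibitors, which block ATP hydrolysis by the enzyme, STF1 rose. It was at 862 and 845 normalized counts in WT and at 1085 and 1094 in 9Myc-Swd2, with a limma-trend log2 fold change of 0.35 ± 0.07 (SE, adjusted p = 0.000632). INH1 was at 806 and 840 in WT and at 907 and 882 in 9Myc-Swd2, a log2 fold change of 0.12 (not past the threshold, adjusted p = 0.20). The tagged libraries were the higher ones for both genes. Per kb of coding length INH1 was at 0.946 and 1.01 of the STF1 level in WT and at 0.846 and 0.816 in 9Myc-Swd2.

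Of the HAP genes only HAP4 passed the test. HAP4 (YKL109W, chromosome XI, 232227 to 233891, plus strand) was at 3203 and 3283 normalized counts in WT and at 5857 and 5511 in 9Myc-Swd2. It rose with a limma-trend log2 fold change of 0.81 ± 0.07 (SE, adjusted p = 4.37e-08), and no library overlapped. HAP3 was at 335 and 347 in WT and at 404 and 370 in 9Myc-Swd2 (log2 fold change 0.18 ± 0.10, adjusted p = 0.14), and HAP2 at 201 and 255 in WT and at 263 and 232 in 9Myc-Swd2 (log2 fold change 0.13 ± 0.13). HAP5 was at 359 and 363 in WT and at 324 and 298 in 9Myc-Swd2 (log2 fold change -0.21 ± 0.10, adjusted p = 0.089), with both tagged libraries lower. HAP5 passed with a fall without 9Myc-Swd2 1 (0.0479) and with scaling to total counts (0.034). Per kb of gene length the order in WT was HAP4 at 1948 ± 34.1, HAP3 at 784 ± 18.7, HAP5 at 495 ± 3.18 and HAP2 at 285 ± 48.0 normalized counts (SD, n = 2), with no overlap of libraries between neighbours in this order. The order was the same in 9Myc-Swd2, at 3414 ± 147, 890 ± 55.4, 427 ± 25.2 and 310 ± 27.3.

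ATP7 and HAP4 were set beside the other genes of their chromosome, because genes of chromosome XI were higher as a group. The middle 50% of the log2 fold changes on chromosome XI lay between 0.65 and 1.10. ATP7 was above the chromosome's median by 0.21, with 80 of the other genes above it and 261 below. HAP4 differed from that median by -0.09, with 207 genes above it and 134 below. Whether either gene would differ without the change of the whole chromosome cannot be told apart in these libraries. SDH1 and SDH3, genes of complex II (succinate dehydrogenase) on the same chromosome, rose by log2 fold changes of 1.21 and 0.93. SDH2 and SDH4, on other chromosomes, had log2 fold changes of 0.18 and 0.04 and did not pass, although SDH2 passed with size factors from genes off chromosome XI (adjusted p = 0.0422).

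**Figure D3:**
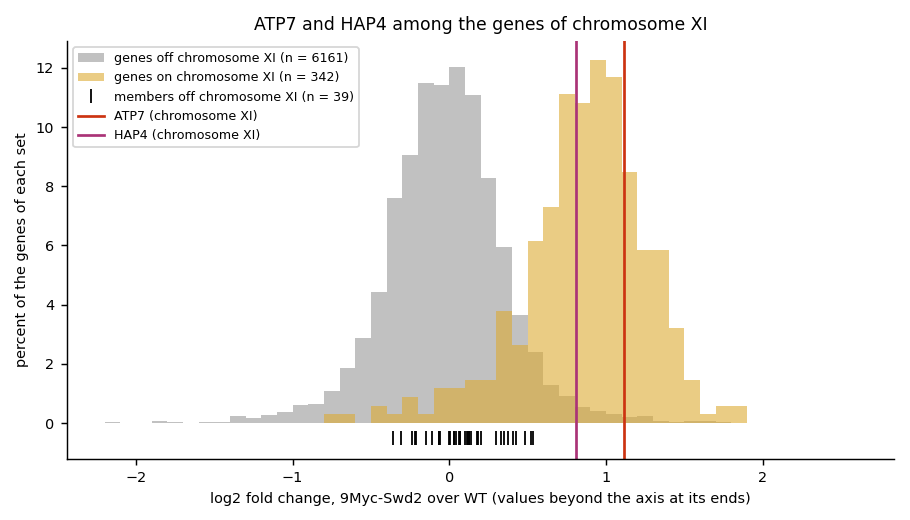
Distribution of log2 fold changes of 9Myc-Swd2 over WT for the 342 genes tested on chromosome XI (yellow) and the 6161 genes elsewhere (grey), as percent of each set. Vertical lines mark ATP7 and HAP4, which fall inside the chromosome XI distribution, and ticks below 0 on the y axis mark the 39 genes of the respiratory set on other chromosomes.

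Summed over each complex, the F1 genes were higher in 9Myc-Swd2, and the Fo genes were so only with ATP7 of chromosome XI in the sum. The F1 genes summed to 18635 and 19431 normalized counts in WT and to 23093 and 23009 in 9Myc-Swd2, a ratio of means of 1.21. The Fo and stalk genes summed to 9497 and 9641 in WT and to 10916 and 11168 in 9Myc-Swd2, a ratio of 1.15. Without ATP7, the Fo gene on chromosome XI, they summed to 8225 and 8421 in WT and to 8119 and 8573 in 9Myc-Swd2, a ratio of 1.00 with overlapping libraries. The complex III and cytochrome c genes gave 17963 and 19080 in WT and 18980 and 19534 in 9Myc-Swd2, a ratio of 1.04 with overlapping libraries. The complex IV genes gave 6701 and 7100 in WT and 6488 and 6763 in 9Myc-Swd2, a ratio of 0.960, also with overlap. The sums of the NADH dehydrogenase, F1 and inhibitor genes, none of which lies on chromosome XI, were higher in both tagged libraries than in both WT libraries. These sums are weighted to the most read genes and were given no test.

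Within a complex the levels per kb of gene length differed widely between subunits. In the F1 head, ATP15 had the highest level in WT with 7609 ± 185 normalized counts per kb (SD, n = 2), followed by ATP1 with 5052 ± 321, ATP2 with 4025 ± 14.7, ATP16 with 3522 ± 61.0 and ATP3 with 1533 ± 9.78. In 9Myc-Swd2, ATP2 (5631 ± 186) and ATP1 (5517 ± 123) did not differ beyond their spread. In Fo and the stalk, ATP7 moved from 2374 ± 71.1 in WT to 5136 ± 273 in 9Myc-Swd2, which placed it above ATP4 at 3955 ± 189, where ATP4 had been the higher at 4611 ± 91.6. In complex III, QCR6 had the highest level in both groups, at 10371 ± 1150 and 9360 ± 1020, followed by QCR7 at 7379 ± 117 and 7043 ± 355. In complex IV, COX9 had the highest mean, at 3875 ± 209 and 3951 ± 132, but in 9Myc-Swd2 it did not differ from COX13 (3803 ± 140) beyond their spread. COX5A had the lowest mean, at 1316 ± 22.3 and 1259 ± 130, and in 9Myc-Swd2 its libraries overlapped those of COX5B (1397 ± 98.0). For QCR9, QCR10 and COX5B the gene length includes an intron, and per kb of coding length QCR9 was at 3066 ± 198 in WT in place of 1488 ± 96.2. The lengths leave out untranslated ends. ATP15 and COX9 are the shortest genes of F1 and of complex IV, with 189 and 180 bases. By normalized count, ATP15 (mean 1438) was below ATP1 (8276) and ATP2 (6183) in WT. The part of gene length in these orders was not tested.

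**Figure D4:**
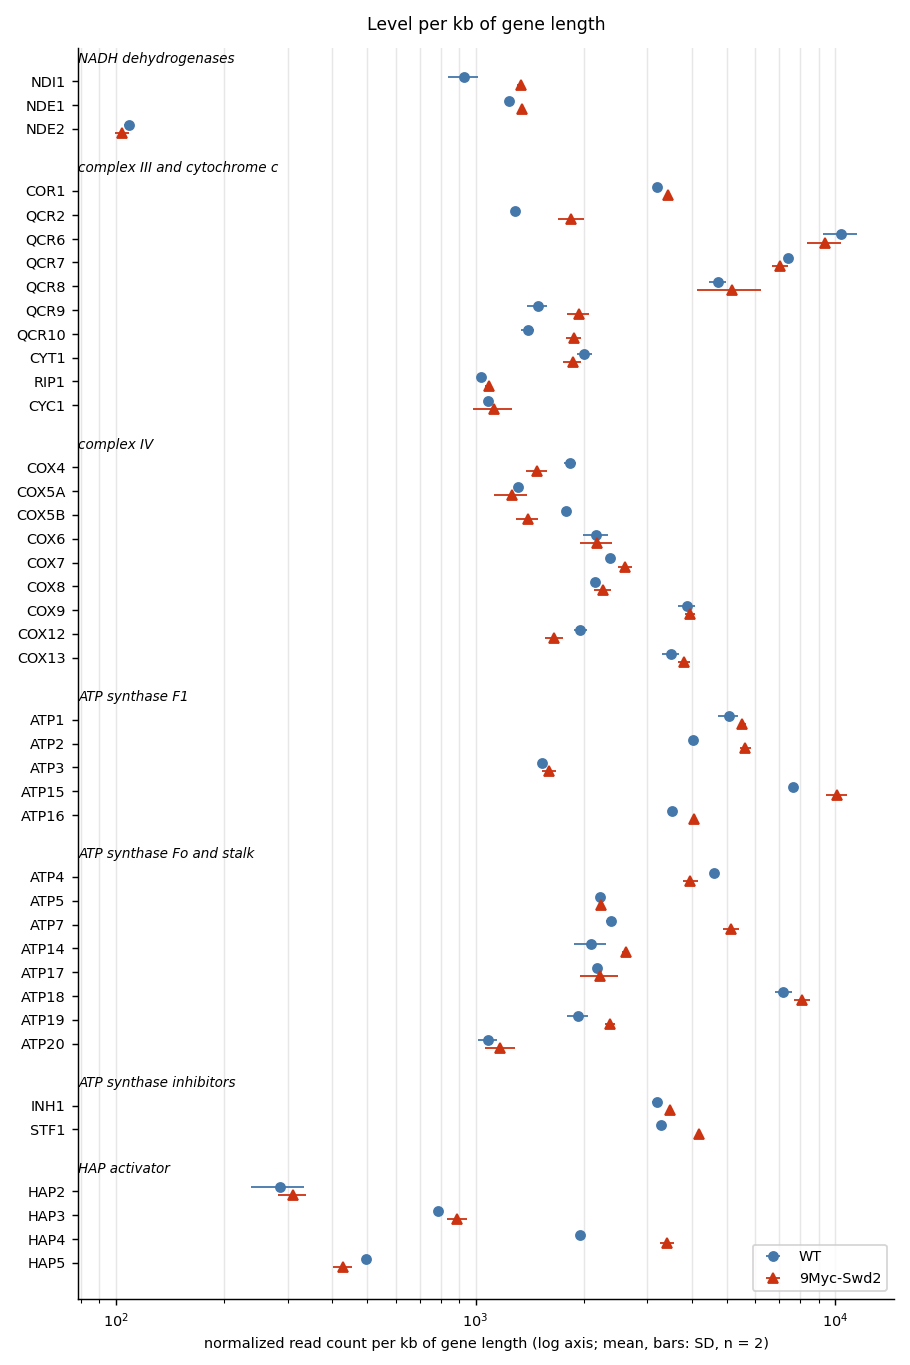
Level of each gene per kb of gene length (x axis, log scale) as mean of the 2 libraries of a group with the SD as bar, WT as circles and 9Myc-Swd2 as triangles. QCR6 has the highest mean in WT and ATP15 in 9Myc-Swd2, where the libraries of QCR6 and ATP15 overlap. NDE2 is lowest, at 109 in WT and 104 in 9Myc-Swd2.

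Genes that assemble, supply or control these complexes were taken from lists of 116 genes, of which 114 were found by symbol and tested. Off chromosome XI, where all but 5 of them lie, 18.5% of all genes tested rose and 22.6% fell. Of the 114 genes, 22 rose (19.3%) and 26 fell (22.8%), beside the 22.3% and 21.4% of all genes, with a median log2 fold change of 0.06. The number that fell was 16 without WT 1 and 12 without WT 2. Of 27 complex IV assembly genes 5 rose and 4 fell. Off chromosome XI, 4 of 26 rose (15.4%) and 4 fell (15.4%). COX17, which carries copper to complex IV, rose from 243 and 232 normalized counts in WT to 413 and 441 in 9Myc-Swd2. Its log2 fold change was 0.84 ± 0.10 (SE, limma-trend adjusted p = 2.64e-06). CMC1, on chromosome XI, and COX23, both of the same family of small intermembrane-space proteins, rose by 1.00 and 0.55. The number of complex IV assembly genes that fell was 1 without WT 1, 0 without WT 2 and 1 with DESeq2. Of 9 genes for complex III assembly or cytochrome c maturation, the haem lyase genes CYT2 (chromosome XI) and CYC3 rose by 1.42 and 0.43. Off chromosome XI, 1 of 8 rose (12.5%) and 2 fell (25%). CYC2 and FMP25, the latter chosen after its value was seen, were called lower. CYC2 was at -0.36 and did not pass without WT 1 (0.0765) or WT 2 (0.051). In ATP synthase assembly 1 of 9 genes, INA17, was called lower (-0.36, adjusted p = 0.0432), which did not pass without WT 2 (0.407) or 9Myc-Swd2 1 (0.308).

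Of the 10 other genes of the chain and ATP synthase, 4 rose (40%) and 3 fell (30%), beside 22.3% and 21.4% of all genes tested. Off chromosome XI, 3 of 9 rose (33.3%) and 3 fell (33.3%), beside 18.5% and 22.6% of all genes tested there. MCR1, a mitochondrial NADH-cytochrome reductase gene on chromosome XI, rose by 0.87 on the log2 scale, and CYC7, given above, by 0.73. RCF1, whose product associates with complexes III and IV, was at 514 and 570 normalized counts in WT and at 348 and 388 in 9Myc-Swd2. It fell by 0.56 on the log2 scale (limma-trend adjusted p = 0.000128). The phosphate carrier gene MIR1 and the main ADP/ATP carrier gene PET9, which serve ATP synthase with its substrates, rose by 0.47 and 0.45. PET9 was at 3120 and 3431 in WT and at 4439 and 4515 in 9Myc-Swd2, without overlap. The minor carrier genes AAC1 and AAC3 had log2 fold changes of -0.11 and 0.14 and did not pass, although AAC3 passed without 9Myc-Swd2 1 (adjusted p = 0.0331).

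Genes for the cofactors of the chain were lower in part. Of 8 haem synthesis genes 4 fell (50%) and 1 rose (12.5%). All 8 lie off chromosome XI, where 22.6% of all genes tested fell and 18.5% rose. HEM14, which is among the 4 and was chosen after its value was seen, fell by 0.32. It did not pass in the authors' deposited comparison (adjusted p = 0.0725). HEM4, the uroporphyrinogen synthase gene, was at 302 and 295 normalized counts in WT and at 170 and 166 in 9Myc-Swd2. Its limma-trend log2 fold change was -0.83 ± 0.11 (SE, adjusted p = 1.23e-05). HEM15, the gene of ferrochelatase, which inserts iron into haem, was at 1198 and 1212 in WT and at 840 and 832 in 9Myc-Swd2, and fell by 0.53. HEM12 fell by 0.45, and HEM1, the gene of the first enzyme of the pathway, which was named after its value was seen, rose by 0.37. Of 10 coenzyme Q synthesis genes, also off chromosome XI, 4 fell (40%), with COQ10, COQ2 and COQ11 at -0.49, -0.36 and -0.35. The coenzyme Q count was 2 with DESeq2 and without WT 1, and 1 without WT 2. COQ2 did not pass without WT 2 (0.261) or 9Myc-Swd2 1 (0.143), and COQ11 not without either WT library (0.06 in both cases).

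Of the 8 genes encoded in mitochondrial DNA, 5 fell (62.5%), beside 22.6% of all genes tested off chromosome XI. The median log2 fold change of the 8 was -0.63. VAR1, the gene of a mitochondrial ribosomal protein, was at 49.4 and 59.3 normalized counts in WT and at 19.1 and 21.2 in 9Myc-Swd2 (log2 fold change -1.38 ± 0.26, SE, limma-trend adjusted p = 0.000329). COX3, a core subunit of complex IV, was at 73.2 and 61.2 in WT and at 27.6 and 34.3 in 9Myc-Swd2 (log2 fold change -1.10 ± 0.23, adjusted p = 0.000898). COB, the gene of cytochrome b, was at 29.5 and 32.1 in WT and at 11.7 and 18.1 in 9Myc-Swd2 (log2 fold change -1.03 ± 0.33, adjusted p = 0.0175). These are few reads, and COB did not pass without WT 1 (0.0988), WT 2 (0.161) or 9Myc-Swd2 1 (0.0685). The number that fell was 2 without WT 1 and 3 with DESeq2. COB overlaps 3 other RefSeq genes on its own strand, and how reads there were assigned is not known. Whether the libraries were enriched for polyadenylated RNA, which mitochondrial transcripts of yeast lack, is not given in the sources used here. The part of such enrichment in these values was not tested. Of 14 nuclear genes for translational activators and mRNA factors of mitochondrial genes, CBP1 rose by 0.57, and CBS1 and AEP2 fell, at log2 fold changes of -0.61 and -0.40. CBS1 and AEP2 did not pass without WT 2 (0.0503 and 0.108).

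A list of 11 regulator genes held RTG1, RTG3 and OPI1 beside regulators that respond to oxygen, haem or glucose. Of the 11, 5 rose (45.5%) and 1 fell (9.09%), beside 18.5% and 22.6% of all genes tested off chromosome XI, where the 11 lie. ROX1, the repressor of hypoxic genes, was at 688 and 620 normalized counts in WT and at 992 and 865 in 9Myc-Swd2 (log2 fold change 0.50 ± 0.09, SE, limma-trend adjusted p = 0.000126). HAP1, a haem-responsive activator, was at 3390 and 3171 in WT and at 4391 and 4228 in 9Myc-Swd2 (log2 fold change 0.39 ± 0.07, adjusted p = 0.000181). RTG1 rose by 0.46, but not without WT 2 (adjusted p = 0.117), and its log2 fold change was 0.29 without 9Myc-Swd2 1. HXK2, the hexokinase that takes part in glucose repression, was called lower (-0.31, adjusted p = 0.00324) and did not pass without WT 2 (0.0541); it was chosen after its value was seen. MIG1 and CAT8, a repressor and an activator of the same system, were also chosen after their values were seen and had log2 fold changes of -0.10 and 0.08.

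**Figure D5:**
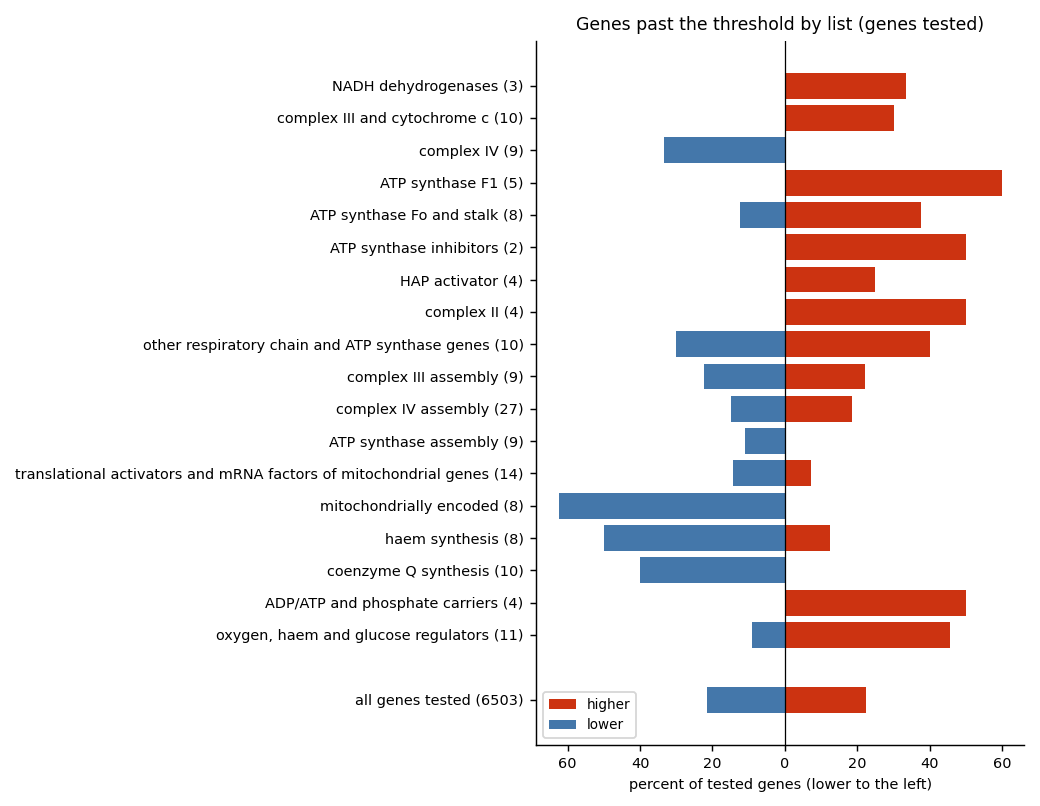
Percent of the tested genes of each list that rose (red, to the right) or fell (blue, to the left), with the number tested in parentheses and all 6503 genes as the last bar. Bars point to the left alone for complex IV, ATP synthase assembly, the mitochondrially encoded genes and coenzyme Q synthesis. They point to the right alone for the NADH dehydrogenases, complex III and cytochrome c, F1, the inhibitors, the HAP genes, complex II and the carriers.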

How the data were processed

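Strand-marking libraries of yeast RNA were sequenced on an Illumina HiSeq instrument (2 WT, 2 9Myc-Swd2). Per the submitters' processing notes, bcl2fastq 1.8.4 and the genome build sacCer3 (R64) were used. The aligner, counter and strand setting were not given in the sources used here. 0 of the 41 genes overlap another RefSeq gene. Of the genes on the further lists, COX1, COB and COX2 overlap 6, 3 and 1 RefSeq genes on their own strand. HEM14 overlaps 1 on the opposite strand. The authors deposited a signal, the read count divided by a size factor per library, which was found from the values: 100% of them were whole multiples of a step, to within 1e-06 steps. They also deposited their own comparison, which per the file headers holds a log2 fold change with its error, a Wald score and a raw and adjusted p-value for each gene. The authors' log10 group means were not used. Depth was between 7849193 and 8388090 reads per library, and SDs cover 2 libraries.

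The test was limma-trend (limma 3.58.1, R 4.3.3) on log2(value + 1), which understates changes of low genes, with group as the only term, for the 6503 genes with a mean of at least 1. Two-sided p-values were adjusted over these genes (Benjamini-Hochberg) and called under 0.05. The variance of each gene, with 2 residual degrees of freedom, was drawn toward a trend over all genes tested. A given SE is therefore not the spread of that gene alone. The fit was tested on simulated data with few changed genes and the same dispersion in both groups. That setting differs from these data, so the simulation does not bear on the calls here. The planned design foresaw normalized values, and edgeR 4.0.16 (quasi-likelihood test) and DESeq2 1.42.0 were run on the recovered reads as alternatives. They called 1492 genes higher and 1387 lower (edgeR) and 1094 and 955 (DESeq2). Of the 6697 identifiers, 6014 (89.8%) matched RefSeq locus tags of R64, which gave positions, lengths and sequences (Biopython 1.88). No table of proteins was used. The 41 genes and all lists were chosen with earlier results of these data known. Named genes were the 41, SWD2, CYC7, TIM11 and, for each further list, the called genes with the 3 largest log2 fold changes in size (all genes of a list of at most 4); others are said to be chosen after their values were seen. Alternatives were limma without a trend, edgeR, DESeq2, the authors' comparison, a replicate block, no filter, a filter at 5 CPM, a pseudocount of 0.1, quantile normalization, total count scaling, size factors without chromosome XI genes, the fit without those genes, and each library left out. For COQ7 and FMP36 no row was matched by symbol.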

Additional observations from a re-analysis of the deposited data

How the results depend on the processing

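Of the 16 called genes among the 41, 9 kept their call under every one of the 16 alternatives that gave a value: NDI1, QCR2, QCR10, COX5B, ATP2, ATP15, ATP7, STF1 and HAP4, of which ATP7 and HAP4 have no value in the fit without chromosome XI genes. The other 7 lost it under at least 1. QCR9 lost it only without a filter (adjusted p = 0.0528). No direction reversed among the 41 genes with a call, and the median of all genes moved by at most 0.06 on the log2 scale (-0.06 with total count scaling). Without a filter 950 genes rose and 847 fell, against 882 falls with limma without a trend. Among the 41 genes, 1 fell without a filter and 1 with limma without a trend; those settings gave 1 fall in complex IV, 1 rise in Fo and the stalk and 0 falls there. 1 gene of complex III fell after quantile normalization, 1 HAP gene (HAP5) fell with total count scaling, and 0 HAP genes rose without chromosome XI genes, which leaves out HAP4. Of the genes on the further lists, 16 fell with DESeq2 and in the authors' deposited comparison, and 11 without a filter. The causes were not tested, except where genes were left out by construction.

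With each library left out in turn, between 982 and 1597 genes rose and between 795 (without WT 2) and 1438 fell. Of the 41, between 10 and 14 rose and between 1 and 4 fell. Falls ranged from 0 to 1 in complex III, from 1 to 3 in complex IV, from 0 to 1 in Fo and the stalk, and from 0 to 1 among HAP genes; on the further lists they ranged from 12 to 26. A group left with 1 library is assumed to vary like the other. The replicate block gave 13 rises and 4 falls among the 41, and 1619 and 1566 over all genes; ATP18 was the added rise (adjusted p = 0.021). Same-numbered libraries deviated together with a correlation of 0.166 over 5860 genes, but the labels give them only a shared number. With 2 libraries a group, the interval of a small change is wide, and a gene that did not pass is not shown to be unchanged.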
